A study of Mus musculus with 2 samples.

Results

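The Fos, Jun and immediate early genes examined here are 10 mouse genes, Fos, Fosb, Fosl1, Fosl2, Jun, Junb, Jund, Egr1, Atf3 and Ier2, out of 19532 genes measured on both arrays. They were chosen by name: every probe annotated to one of these symbols was taken, which gave 14 probes, 1 for each of 6 genes and 2 for each of Fos, Fosl2, Junb and Ier2. Each of the 2 two-colour Agilent arrays compared total RNA of a mouse lung sample, labelled with Cy3, with total RNA of mouse embryonic fibroblasts (MEF), labelled with Cy5. The lung samples, numbered 1 and 2 by the labels, were untreated and had not been cultured, and their RNA was taken from cell pellets. The MEF, which are fibroblasts grown out from embryos, were kept in DMEM with 10% heat-inactivated fetal bovine serum and 0.1 mM non-essential amino acids. The sources used here do not give strain, age, the way the lung cells were obtained or the time between the last medium change and the harvest of the MEF. Neither is it stated whether the lung samples came from separate animals or whether both arrays carried the same MEF preparation, so the p-values measure only the spread between these 2 samples, which may be technical.

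Immediate early genes are transcribed within minutes of a stimulus such as serum, growth factors, stress or mechanical injury, without new protein synthesis. Fos and Jun family proteins are basic leucine zipper (bZIP) factors that pair to form AP-1: Jun proteins can pair with themselves or with Fos proteins, whereas Fos proteins need a Jun partner. Egr1 is a zinc finger factor, Atf3 a stress-induced bZIP factor that can pair with Jun proteins, and Ier2 a small nuclear protein induced with them, and in tissue these transcripts also rise when cells are handled or dissociated.

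Values are log2 ratios of lung over MEF as the authors deposited them, so that 1 is a 2-fold difference, and they say nothing of the level of a transcript in either channel. The base of the logarithm and the direction of the ratio are not stated. The base was taken as 2 because values reach 10.1 in size, which does not exclude natural logarithms. The direction was set from lung epithelial genes such as Sftpc and Scgb1a1. All 22 values of these genes (11 genes on 2 arrays) were above 0, which makes these values an assumption and no finding. The series' design text also speaks of lung relative to MEF, but Agilent's own convention is Cy5 over Cy3, the opposite, and all directions given here turn around if that assumption fails. Each gene was tested against 0 with limma over all 19532 genes (Benjamini-Hochberg adjusted p below 0.05). That test was permissive, since 32.6% of all genes were called higher in lung and 43.6% lower. Of 1046 odorant and pheromone receptor genes, whose transcripts belong to the nose, 58.5% also passed. Among these receptor genes 52.5% were called lower and 6.02% higher, so their calls leaned to lower. The central 95% of those receptor genes is called the receptor range. Its limits were -1.39 and 1.22 on lung replicate 1, and -1.45 and 1.23 on lung replicate 2. On both arrays, 14.6% of all genes exceeded this range and 8.78% fell short of it. With 2 arrays an exact sign permutation of a single gene could not reach a two-sided p below 0.5, so no such test was used.

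Of the 10 genes, 7 were lower in lung than in MEF, 2 were higher and 1 did not pass the test. Of all genes, 43.6% were called lower and 32.6% higher. The zinc finger factor gene Egr1 was lowest at 11.8-fold below MEF, followed by Ier2 at 4.39-fold, Fosl1 at 2.72-fold and Atf3 at 2.61-fold. Jun was the highest at 2.59-fold above MEF, and Jund was also higher, while Fosl2 did not pass. The median of the 10 genes was -0.78 against -0.21 for all genes. At least 2-fold differences on both arrays were seen for 4 genes lower and 1 higher, where 15.4% of all genes were 2-fold lower and 17.1% 2-fold higher. Outside the receptor range lay Jun above and Egr1 and Ier2 below, where 14.6% of all genes lay above and 8.78% below. Because each sample is a mixture of cells, fewer cells with a transcript and less of it per cell cannot be told apart.

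**Figure D1:**
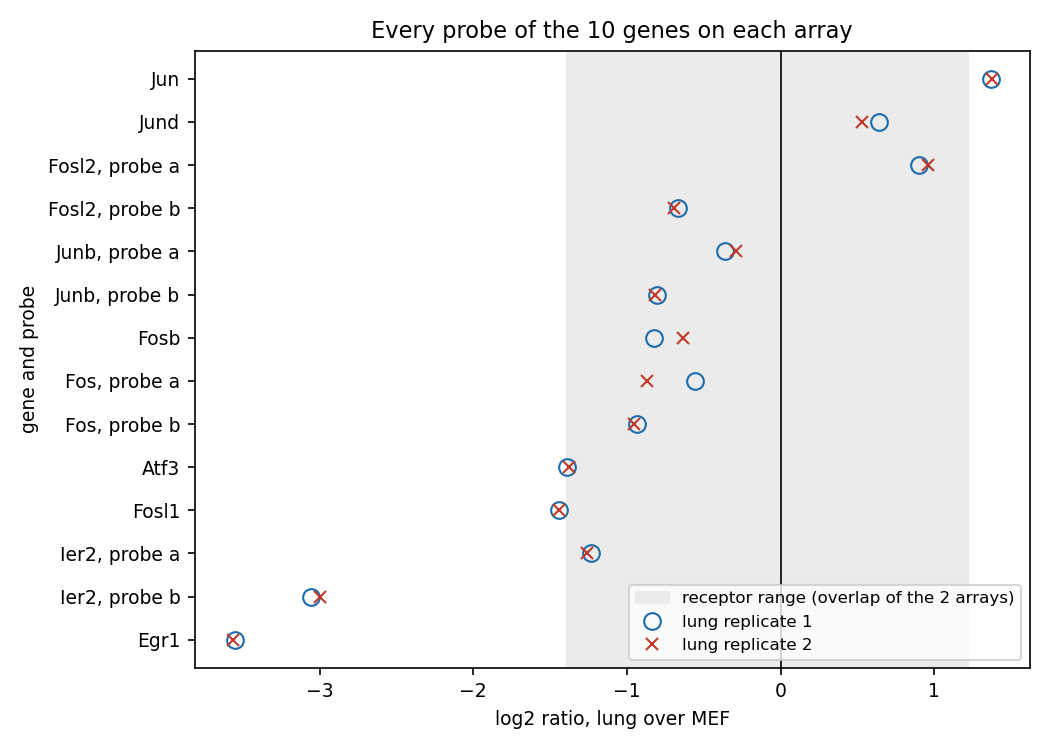
Log2 ratio of lung over MEF (horizontal axis) for each of the 14 probes of the 10 genes (vertical axis, ordered by gene mean), with lung replicate 1 as circles, lung replicate 2 as crosses and the receptor range shaded. The arrays nearly coincide for most probes, the probes of Fosl2 lie on opposite sides of 0 at 0.93 and -0.68, and those of Ier2 at -1.25 and -3.02.

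Among the Jun genes, whose products form the obligatory partners in AP-1, Jun and Jund were higher in lung and Junb was lower. Jun, the founding member of the family, stood at 1.37 on both lung replicates, with a mean of 1.37 ± 0.0029 (SD, n = 2) and an adjusted p of 0.00188 by limma. Only 14.1% of all genes had a higher mean. Jund, which is expressed in many resting cells and responds less to serum than the other Jun genes, was at 0.64 on lung replicate 1 and 0.53 on lung replicate 2. Its mean was 0.58 ± 0.08 (limma adjusted p = 0.00840), which is inside the receptor range. Junb, an induced Jun gene whose product is a weaker activator than Jun at many sites, was at -0.58 and -0.55 on replicates 1 and 2. Its mean of -0.57 ± 0.02 was 1.48-fold lower (limma adjusted p = 0.00484), with its probes at -0.81 and -0.32. The values of the 3 Jun genes did not overlap, and ranked Jun, Jund and Junb from high to low.

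The Fos genes, which encode partners that pair only with Jun proteins or other bZIP factors, were lower in lung in 3 of 4. Of all genes, 43.6% were called lower. Fos, the classical serum response gene, was at -0.75 on lung replicate 1 and -0.91 on lung replicate 2, a mean of -0.83 ± 0.12 or 1.78-fold lower (limma adjusted p = 0.00773). Its probe A_52_P262219 read -0.94 and -0.96 on the arrays, while probe A_51_P115868 read -0.55 and -0.87, so the spread between arrays came mostly from the latter. Fosb, a close relative induced alongside Fos, was at -0.82 and -0.64, a mean of -0.73 ± 0.13 (1.66-fold lower, limma adjusted p = 0.0109). The ranges of Fos and Fosb over the arrays overlapped, so their order is not set. Fosl1, whose product lacks the strong activation domain of Fos and which is associated with cell migration, was the lowest Fos gene at -1.45 and -1.44. Its mean of -1.44 ± 0.0038 was 2.72-fold lower (limma adjusted p = 0.00183), and on lung replicate 2 it lay just inside the receptor range.

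Fosl2, the other late-induced Fos relative, averaged 0.11 and 0.13 on the arrays and did not pass the test (mean 0.12 ± 0.01, limma adjusted p = 0.0648). That mean combined probes that disagreed. Probe A_51_P507242 read 0.90 and 0.96 on lung replicates 1 and 2 and was higher when tested alone (limma adjusted p = 0.00326 over all probes). Probe A_52_P484903 read -0.67 and -0.70 and was lower when tested alone (limma adjusted p = 0.00403). The distance between them was 1.61, many times the SD between arrays of either probe (0.04 and 0.02). Among the 5405 genes with 2 probes, the median distance was 0.81, 22.1% had a distance at least as large as that of Fosl2, and 33.6% had probes of opposite sign. No direction is therefore given for Fosl2, and which transcript form each probe reads was not tested.

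Egr1, Ier2 and Atf3, the immediate early genes outside the Fos and Jun families, each differed by 2-fold or more on both arrays, and each was lower in lung. Egr1, which serum and growth factors induce through serum response elements, was at -3.55 on lung replicate 1 and -3.56 on lung replicate 2, a mean of -3.56 ± 0.01 (limma adjusted p = 0.00161). Only 1.19% of all genes had a lower mean. Ier2 was at -2.14 and -2.13, a mean of -2.14 ± 0.01 (limma adjusted p = 0.00165), and its probes were 1.78 apart. Probe A_52_P554555 read -3.05 and -2.99, whereas probe A_51_P481325 read -1.23 and -1.26 and lay inside the receptor range, so the direction of Ier2 was shared by its probes but its size was not. Atf3 was at -1.39 and -1.38, a mean of -1.39 ± 0.0072 (limma adjusted p = 0.00188), and reached below the receptor range on lung replicate 1 alone. Atf3 and Fosl1 differed by 0.06, which is more than the spread of either between arrays but far less than the distance between probes of a typical gene.

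**Figure D2:**
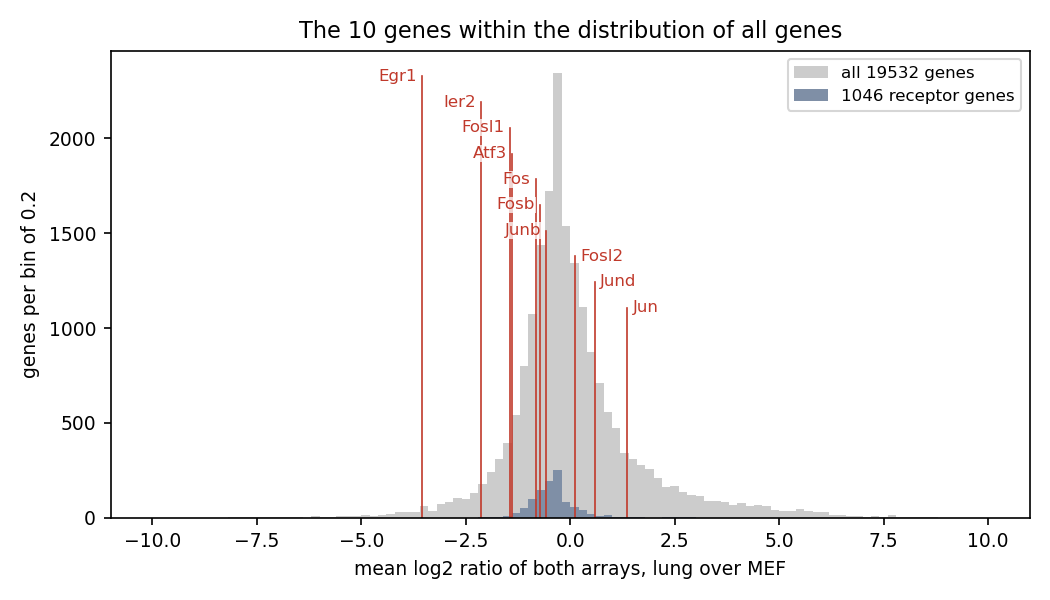
Number of genes per bin of 0.2 (vertical axis) against the mean log2 ratio of lung over MEF (horizontal axis) for all 19532 genes (light) and the 1046 receptor genes (dark), with the 10 genes as labelled lines whose height carries no value. Egr1 at -3.56 and Ier2 at -2.14 lie in the lower tail, and Fosl1 at -1.44 and Atf3 at -1.39 lie on the lower shoulder. Jun at 1.37 lies on the upper shoulder, and the others lie within the bulk of the distribution.

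Ordered by the average of their probes, the 10 genes ran from high to low as Jun, Jund, Fosl2, Junb, Fosb, Fos, Atf3, Fosl1, Ier2 and Egr1. Of the neighbours in this order, only Fosb and Fos overlapped between arrays. Single probes would change the order: those of Fosl2 fall above Jund or below Junb, and the higher probe of Ier2, at -1.25, falls above Atf3 and Fosl1. The gap was largest between Ier2 and Egr1, at 1.42, and next between Jun and Jund, at 0.79. The precision between arrays was high for several of these genes, since the SDs of Jun, Fosl1, Atf3, Egr1, Fosl2 and Ier2 were all below 0.02, as were those of 23.4% of all genes. Probes of the same gene were further apart than that in all 4 genes with 2 probes, at 0.23 for Fos and 0.49 for Junb beside the distances given for Fosl2 and Ier2. The spread between probes does not enter the p-values.

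Centring moved the means of the 10 genes but turned no sign. The median of all genes was shifted upward by 0.18 when each array was centred on its median, and by 0.42 when it was centred on the receptor genes. Relative to the median of all genes, Jun stood at 1.55, Jund at 0.76 and Fosl2 at 0.30, and Egr1 at -3.38, Ier2 at -1.95, Fosl1 at -1.26, Atf3 at -1.20, Fos at -0.65, Fosb at -0.55 and Junb at -0.39. With this centring 7 genes were lower and 3 higher, Fosl2 being the added call. With receptor centring 5 were lower and 3 higher: Fosb (-0.31, limma adjusted p = 0.0546) and Junb (-0.15, limma adjusted p = 0.0599) no longer passed. The share of calls that were higher was 22.2% for these genes as deposited and 37.5% with receptor centring, and for all genes it was 42.8% and 63.6%.

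**Figure D3:**
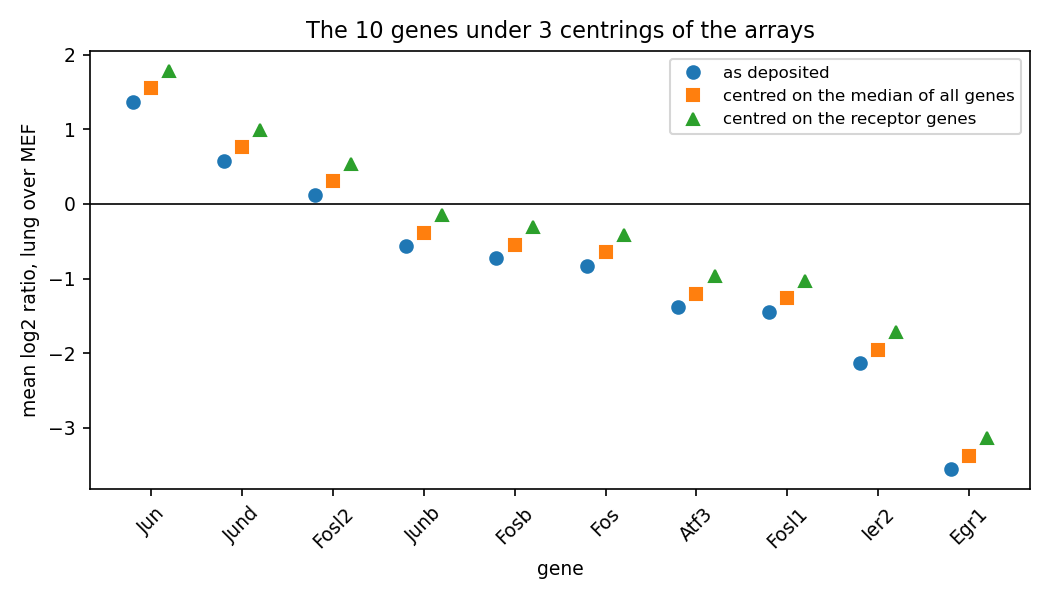
Mean log2 ratio of lung over MEF (vertical axis) of the 10 genes (horizontal axis) as deposited (circles), centred on the median of all genes (squares) and centred on the receptor genes (triangles). No gene changes sign, and the values nearest to 0 are that of Fosl2 as deposited, at 0.12, and that of Junb with receptor centring, at -0.15.

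The sequences before the transcription start are shown for Jun, the highest gene, and for Fos and Atf3, which were lower, because AP-1 and ATF proteins are known to bind promoters of such genes. A window from 250 bases before to 50 bases after an annotated start was found for 7 of the 10 genes in RefSeq's annotation of GRCm38.p6 (Atf3, Fos, Fosb, Fosl2, Jun, Junb and Jund). The windows are printed 5′ to 3′ on the strand of the gene, Jun from chr4:95052173-95052472 (minus strand), Fos from chr12:85473640-85473939 (plus strand) and Atf3 from chr1:191183284-191183583 (minus strand). Capitals mark matches, on either strand, to TGANNTCA and TGANTCA, which hold the outer letters of the ATF and AP-1 sites. They also mark TGACG (the core of the cyclic AMP response element) and TATAAA (the TATA box). N was any base, so a match such as TGAGCTCA need not be an ATF or AP-1 site. Where TGACG lies within TGANNTCA a match would count for both, which occurred in none of the 7 windows.
Jun: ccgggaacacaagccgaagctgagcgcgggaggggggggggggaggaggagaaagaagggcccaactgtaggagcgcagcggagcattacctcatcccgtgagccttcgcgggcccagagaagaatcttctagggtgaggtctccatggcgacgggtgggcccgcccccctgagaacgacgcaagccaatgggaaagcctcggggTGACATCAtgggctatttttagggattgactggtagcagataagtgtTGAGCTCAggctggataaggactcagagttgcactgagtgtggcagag
Fos: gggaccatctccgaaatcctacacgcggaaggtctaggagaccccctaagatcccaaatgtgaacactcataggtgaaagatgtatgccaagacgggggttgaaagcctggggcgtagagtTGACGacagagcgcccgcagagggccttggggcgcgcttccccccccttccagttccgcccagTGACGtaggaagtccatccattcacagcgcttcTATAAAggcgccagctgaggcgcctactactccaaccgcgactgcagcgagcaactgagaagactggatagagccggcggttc
Atf3: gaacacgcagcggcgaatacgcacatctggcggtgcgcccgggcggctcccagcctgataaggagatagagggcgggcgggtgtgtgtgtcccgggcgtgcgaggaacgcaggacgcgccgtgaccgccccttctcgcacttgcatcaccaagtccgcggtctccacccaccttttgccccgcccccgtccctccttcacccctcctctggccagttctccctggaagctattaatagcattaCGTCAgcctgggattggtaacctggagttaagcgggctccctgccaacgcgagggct

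In the Jun window the capitals are TGACATCA, which begins 45 bases before the start, and TGAGCTCA just after the start. The Fos window holds TGACG at 129 and 66 bases before the start and TATAAA at 33 bases before it. The Atf3 window holds TGACG on the opposite strand, 7 bases before the start. Over the 7 windows, TGACG was found in 4 (Atf3, Fos, Fosb and Junb), where 20.8% of all 32851 windows of the same length hold it. TGANNTCA was found in 2 (Jun and Jund) against 14.1% of all windows, TATAAA in 2 (Fos and Junb) against 13.6%, and TGANTCA in 0 against 7.81%. In Junb the TATAAA begins at the annotated start itself, not upstream of it as in Fos. The CArG box, to which serum response factor binds, was in 0 of the 7 and in 1.63% of all windows. The 4 genes with TGACG in the window were the 4 of these 7 that were called lower in lung as deposited. Of these, Fosb and Junb did not pass with receptor centring, and the lower genes Egr1, Ier2 and Fosl1 had no window. The motifs were picked with the ratios known, so this split is no test of a link between motif and direction. A match is no evidence of binding, and no match says only that the letters are not in this window.

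Other immediate early transcription factors were mixed, with 4 of 16 higher in lung, 8 lower and 4 that did not pass. Over all genes 32.6% were called higher and 43.6% lower as deposited, beside which the as-deposited counts of this and the following lists stand. With receptor centring, 9120 of the 19532 genes were higher and 5224 lower, beside which the receptor-centred counts stand. The median of this list was -0.27 as deposited, where that of all genes was -0.21. With receptor centring, which raised every gene by 0.42, the list median turned to 0.15, with 8 higher and 5 lower. Centred on the median of all genes, the list median was -0.08. The lowest were Myc, the growth-promoting factor gene, at -2.34 and -2.23 on lung replicates 1 and 2 (-2.29 ± 0.08, limma adjusted p = 0.00181), and the nuclear receptor gene Nr4a1 at -1.30 and -1.32 (-1.31 ± 0.02, limma adjusted p = 0.00197). The highest were Klf4, a zinc finger factor of epithelial barrier and endothelium, at 1.46 and 1.59 (1.52 ± 0.10, limma adjusted p = 0.00281), and Ier3, an immediate early regulator of survival, at 1.06 on both. Of these 16, Myc alone lay below the receptor range on both arrays and Klf4 alone above it, against 8.78% and 14.6% of all genes.

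Feedback regulators and effectors that are themselves induced as immediate early genes were split, with 14 of 31 higher, 12 lower and 5 that did not pass, and a median of 0.34. That median was 0.17 on lung replicate 1 alone, and with receptor centring it was 0.75 with 19 genes higher and 11 lower. Sik1, a salt-inducible kinase, was highest at 2.39 and 2.32 (2.35 ± 0.04, limma adjusted p = 0.00167), with its probes at 3.64 and 1.07. The phosphatase gene Dusp2, whose product inactivates MAP kinases, followed at 2.08 and 2.20 (2.14 ± 0.08, limma adjusted p = 0.00194). Lowest were Ptgs2, the inducible cyclooxygenase gene, at -2.64 and -2.70 (-2.67 ± 0.04, limma adjusted p = 0.00163), and Arc, known as a neuronal activity gene, at -2.46 and -2.32 (-2.39 ± 0.10, limma adjusted p = 0.00193). Beyond the receptor range on both arrays were 6 of the 31 at the upper end and 6 at the lower end. Over all genes the shares were 14.6% and 8.78%.

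Other bZIP genes whose products pair with AP-1 proteins were lower in 7 of 12 and higher in 4, with a median of -0.52 that moved to -0.11 with receptor centring (6 lower and 4 higher). Batf2, an interferon-responsive factor of the BATF family, stood apart at 3.95 and 4.53 (4.24 ± 0.41, 18.9-fold higher, limma adjusted p = 0.00368), and Mafk, a small Maf protein gene, was at 1.80 on both arrays. The lowest were Ddit3, the stress-induced factor also called CHOP, at -2.20 and -2.14 (limma adjusted p = 0.00170), and Atf4, the effector of the amino acid response, at -1.91 and -1.96 (limma adjusted p = 0.00174). Of the kinases and factors upstream of immediate early genes, 12 of 18 were lower and 2 higher with a median of -0.47, but with receptor centring 5 were lower and 5 higher with a median of -0.05. As deposited, 0 of the 18 lay outside the receptor range on both arrays. Map2k1 (-1.11 ± 0.03) and Map2k2 (-0.85 ± 0.05), the kinases that activate ERK, were lowest in it. Mapk14, the gene of the stress kinase p38 alpha, was at 0.58 ± 0.02, and Rps6ka5, a kinase of histone and CREB, at 0.57 ± 0.00017 with its probes at 1.39 and -0.24.

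Genes described as AP-1 targets were lower in 6 of 11 and higher in 3, with a median of -1.01, and with receptor centring 5 were lower and 5 higher with a median of -0.60. Timp1, an inhibitor of metalloproteinases, was lowest at -5.37 and -5.34 (-5.35 ± 0.02, 40.9-fold lower, limma adjusted p = 0.00161). The collagenase gene Mmp13 was next at -4.07 and -4.11 (-4.09 ± 0.02, 17.0-fold lower, limma adjusted p = 0.00161). In the other direction, the gelatinase gene Mmp9, abundant in neutrophils, was at 1.74 and 1.69 (1.71 ± 0.04, limma adjusted p = 0.00182) and the stromelysin gene Mmp3 at 1.05 and 0.99 (1.02 ± 0.05, limma adjusted p = 0.00289). On both arrays 4 of the 11 were beyond the lower limit of the receptor range and 1 beyond the upper. Over all genes the shares were 8.78% and 14.6%. Of the 88 genes in these 5 related lists, 41 had more than 1 probe, and 23 of those had probes of opposite sign. Some of the 41 had more than 2 probes, such as Atf2 with 6. The 33.6% found among all genes with 2 probes is therefore not a like share.

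**Figure D4:**
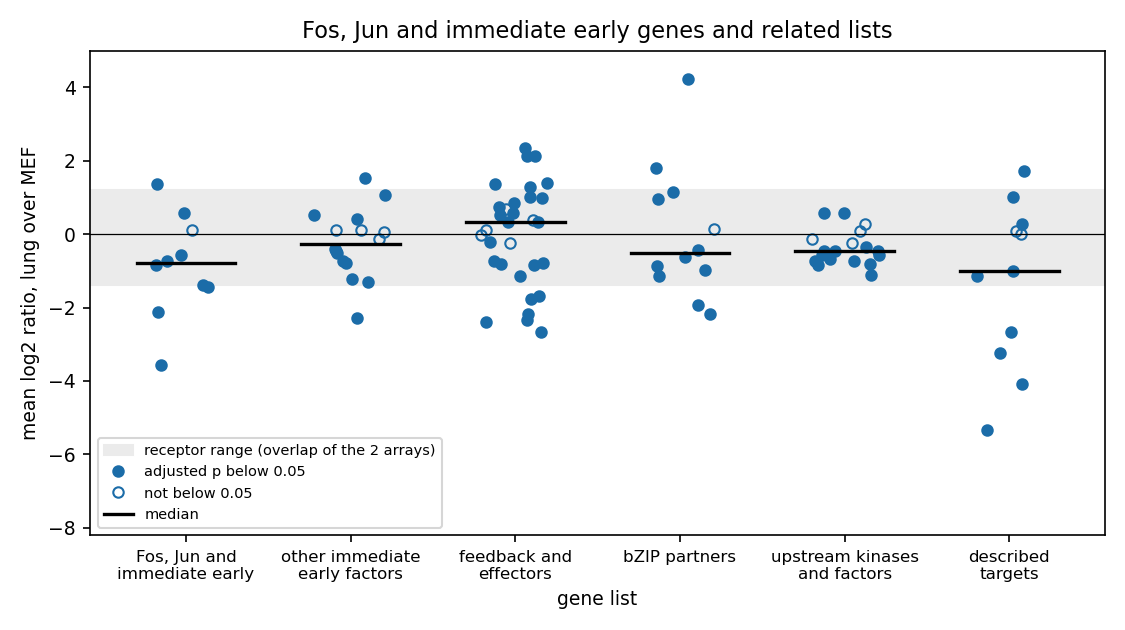
Mean log2 ratio of lung over MEF (vertical axis) for the 10 genes and the 5 related lists (horizontal axis), one point per gene, filled where the limma adjusted p was below 0.05, with the list median as a bar and the receptor range shaded. Medians run from -1.01 for the described AP-1 targets to 0.34 for the feedback regulators and effectors. That of the other immediate early factors turns from -0.27 to 0.15 with receptor centring, which raises every gene by 0.42.

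By Euclidean distance over the 2 arrays, the genes of the related lists nearest to Jun were Gadd45b at 1.38 and 1.37 (distance 0.0146), Tnfaip3 at 1.42 and 1.35 (distance 0.0556) and Dusp6 at 1.28 and 1.30 (distance 0.119). Those nearest to Egr1 were Plau at -3.10 and -3.37 (distance 0.491), Mmp13 (distance 0.753) and Ptgs2 (distance 1.25). With 2 arrays, this likeness says only that the ratios were of like size.

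Marker genes of cell types were examined in the same ratios. All 11 lung epithelial genes, which set the direction, and all 8 endothelial genes were higher in lung, with the endothelial median at 4.74 on lung replicate 1 and 4.41 on lung replicate 2. Of 8 leukocyte genes 7 were higher, with medians of 4.30 and 4.31, and the integrin gene Itgam was lower at -0.93 ± 0.03. All 8 genes of cultured fibroblasts were lower, with medians of -4.86 and -4.77, and so were 6 of 7 proliferation genes, with medians of -2.72 and -2.73. Their part in the ratios of the Fos, Jun and immediate early genes was not tested. Over all genes, which are not independent replicates, the arrays correlated with Pearson's r = 0.98 and Spearman's rho = 0.96. Cell makeup, culture and dye cannot be told apart as sources of a ratio, since every array carried lung in Cy3 and MEF in Cy5.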

How the data were processed

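Expression of 2 lung samples against MEF was measured on 2 two-colour arrays. The authors deposited 1 log2 ratio per probe and array, made with Agilent Feature Extraction per the submitters' processing notes; the sources used here give no version, background method or dye correction, and the base 2 is read from the values. Signal, background and saturation flags were not used, so which ratios rest on a dim channel is unknown, and precision is limited by the number of arrays. Column medians over 41174 probes were -0.28 and -0.14, and nothing was re-centred.

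Of the probes, 32664 carried 1 gene symbol in the platform annotation, 45 several and 8465 none. Symbols were updated through RefSeq by Entrez identifier, and probes of a gene were averaged, giving 19532 genes, 8511 with more than 1 probe. An intercept-only fit per gene against 0 used limma 3.58.1 (lmFit, eBayes) in R 4.3.3, two-sided, with Benjamini-Hochberg adjustment over all genes. The MEF RNA enters as 1 control whose own spread is left out. The fit had 1 residual degree of freedom and 1.21 prior degrees of freedom. Alternatives were other centrings, probe summaries, tests, the base of the logarithm and single arrays.

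The 10 genes and the related lists were chosen with earlier results of these data known. Named are all 10, the 2 highest and 2 lowest genes of each related list, and the 3 genes nearest to the highest and to the lowest of the 10. Figures used matplotlib 3.10.9.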

Additional observations from a re-analysis of the deposited data

How the results depend on the processing

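No paired analysis was possible because the series holds 1 group and each array carries its own control channel. Of 78 tested values of the 10 genes under the alternatives, 63 kept their direction and their side of the threshold. Leaving out either array gave 20 values with no test, all with the sign of the mean. Without moderation 1 gene passed as higher (Jun) and 4 as lower (Egr1, Ier2, Fosl1 and Atf3), and the same counts, 1 and 4, passed against a 2-fold change. Under both, Jund (0.58), Junb (-0.57), Fosb (-0.73) and Fos (-0.83) no longer passed. With receptor centring Junb (-0.15) and Fosb (-0.31) no longer passed. Fosl2 passed as higher with median centring (0.30), with receptor centring (0.54) and with its probe of the largest ratio (0.93), and was reversed with its other probe (-0.68). Requiring every probe of a gene to pass left 2 of the 10 higher and 7 lower. Over all genes, the calls fell from 6366 higher and 8514 lower to 2448 and 3164 without moderation and to 2754 and 2242 against a 2-fold change. With receptor centring the balance turned, to 9120 higher and 5224 lower. Genes at least 2-fold higher and lower on both arrays numbered 3341 and 2999 as deposited and 4559 and 1754 with receptor centring, and the lower ones 4618 read as natural logarithms, under which every fold given would be larger. The median of the other immediate early factors was reversed with receptor centring (0.15), which raised every gene by 0.42. Causes other than the shift, the stricter test or the choice of probe were not tested.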

Other observations

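Within several gene families of the related lists the members went different ways. These families were picked after the values were seen, and limma's adjusted p over all genes is given. Of the Gadd45 genes, which encode small stress-induced regulators of MAP kinase signalling and growth arrest, Gadd45a (-1.77 ± 0.01, adjusted p = 0.00172) and Gadd45g (-1.68 ± 0.03, adjusted p = 0.00181) were lower in lung, whereas Gadd45b was higher (1.37 ± 0.01, adjusted p = 0.00190), with its probes at 0.68 and 2.07. The corepressors of Egr proteins split likewise, with Nab2 at -1.13 ± 0.11 (adjusted p = 0.00463) and Nab1 at 0.73 ± 0.04 (adjusted p = 0.00406). The other Egr genes were lower as Egr1 was, though by less. Egr3 stood at -1.22 ± 0.22 (adjusted p = 0.00971), Egr4 at -0.80 ± 0.12 (adjusted p = 0.00866) and Egr2 at -0.72 ± 0.01 (adjusted p = 0.00336). Unlike Egr1, all of these lay inside the receptor range on both arrays.

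The MAP kinase phosphatase genes Dusp1 (0.59 ± 0.03, adjusted p = 0.00509), Dusp2 and Dusp6 (1.29 ± 0.01, adjusted p = 0.00198) were higher in lung, while the value of Dusp4 was -0.02 ± 0.04 (adjusted p = 0.731) from probes at -1.21 and 1.17. The inhibitors of NF-kappaB signalling Nfkbia (2.14 ± 0.05, adjusted p = 0.00172) and Tnfaip3 (1.38 ± 0.05, adjusted p = 0.00223) were higher as well. The matricellular genes Ccn1 (-2.34 ± 0.02, adjusted p = 0.00163) and Ccn2 (-2.18 ± 0.02, adjusted p = 0.00165), which serum induces in fibroblasts, were lower.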
